A study of Mus musculus with 15 samples.

Results

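The genes described here are grouped under survival signalling from TNF-family and pattern recognition receptors. They are the adaptors Traf1, Traf2, Traf3, Traf5 and Traf6, the ubiquitin ligases Birc2 and Birc3, and the caspase-8 inhibitor Cflar. The TNF-induced genes Tnip1 and Tnfaip2 are listed with them. All were taken by gene symbol, as the probe set annotated to exactly 1 of these symbols. The brightest by its 15-array mean stood for a gene that had more than 1. Of the 10 genes, 9 had a probe set, out of 19937 genes tested in all. No probe set carries Traf3 as its symbol, and Traf3 was not analysed here. The cells were D1, a long-term splenic dendritic cell (DC) line from C57BL/6 mice that is kept in medium with GM-CSF. The 15 arrays (Affymetrix Mouse Gene 1.0 ST) fall into 5 groups of 3 that are labelled as biological replicates. One group was nontreated, and the others received 10 µg/ml curdlan, alone or together with FK506, over 2 h or 4 h. Curdlan is a beta-glucan that ligates the receptor dectin-1, and FK506 blocks the phosphatase calcineurin and so the activation of NFAT transcription factors. The same 3 nontreated arrays served both times, no group with FK506 alone was analysed here, and all groups are 1 cell line.

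TRAF proteins are the adaptors that bind the cytoplasmic tails of TNF receptors, or, for Traf6, the signalling complexes of Toll-like and interleukin-1 receptors. Traf2 brings the ligases cIAP1 (Birc2) and cIAP2 (Birc3) to the receptor, where they attach ubiquitin chains that lead to NF-kB, and together with Traf3 they hold the non-canonical NF-kB kinase NIK (Map3k14) low by degradation. Cflar encodes c-FLIP, which resembles caspase-8 and blocks its activation at death receptors, and several of these genes are themselves known NF-kB targets in myeloid cells.

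The values are log2 expression levels after RMA, on which 1 unit is a doubling of signal. Levels of different genes come from different probes and are not compared with each other. Array medians over the tested genes lay between 6.67 and 6.94, and the mean correlation of an array with the others of its group between 0.9935 and 0.9991. The first nontreated replicate (replicate 1) and replicate 3 of curdlan 2 h lay apart from their groups, with array weights of 0.0781 and 0.119, against 0.707 to 6.87 for the other 13, and results that turn on them are given with and without them. All 13 markers of dendritic cells and macrophages were measured and 0 lay under the lower quartile of the gene means (5.28). Among them were Itgax (CD11c) at 12.2 and Clec7a (dectin-1) at 10.5. The lowest were Flt3 at 5.83 and Cd14 at 6.74, both under the median gene mean. Under the same quartile lay 2 of 6 T cell, 2 of 5 B cell, 4 of 6 NK cell, 2 of 7 neutrophil and 2 of 7 fibroblast markers. Many markers of other lineages thus also lay above it. Of 31 markers of T, B and NK cells, neutrophils and fibroblasts, 0 passed the test in any comparison, with 2 to 13 of them at an unadjusted p under 0.05, and 4 of the 31 lay at or above the median gene mean. In bulk RNA, fewer cells of a type and less RNA per cell cannot be told apart.

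Promoters were searched for motifs of NF-kB and NFAT, since dectin-1 is known to activate both. Sequence is shown for a chosen few genes, Traf1, Traf5, Birc3, Tnip1 and Tnfaip2. All of these but Traf5 hold a match, and the Birc3 stretch was placed further upstream, where its match lies. Traf2, Traf6, Cflar and the other start of Birc2, which are not shown, had neither motif. The 250 bases upstream of 11 RefSeq starts of the 10 genes (build GRCm38.p6) were searched on both strands for the 10-base NF-kB consensus and for the NFAT core GGAAAA. The NF-kB consensus was present at 3 starts (Traf3, Tnip1 and Tnfaip2), and in 7.25% of 32851 such windows of all genes. The NFAT core was present at 4 starts (Traf1, 1 of the starts of Birc2, Birc3 and Tnfaip2), and in 20.4% of all windows. In the 100-base stretches below, written 5′ to 3′ on the strand of the gene, capitals mark the matches, which read TTTTCC where the NFAT core is on the other strand. A match is a run of letters and not a measured binding site.
Traf1, chr2:34961773-34961872, minus strand, the last 100 bases before the start: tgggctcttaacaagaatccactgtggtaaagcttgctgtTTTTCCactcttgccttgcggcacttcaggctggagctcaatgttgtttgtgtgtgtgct
Traf5, chr1:192092600-192092699, minus strand, the last 100 bases before the start, with no match: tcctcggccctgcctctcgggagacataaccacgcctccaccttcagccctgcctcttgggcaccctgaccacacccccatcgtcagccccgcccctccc
Birc3, chr9:7873291-7873390, minus strand, bases 220 to 121 before the start: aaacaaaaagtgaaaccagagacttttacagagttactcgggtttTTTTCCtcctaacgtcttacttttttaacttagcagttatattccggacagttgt
Tnip1, chr11:54962941-54963040, minus strand, the last 100 bases before the start: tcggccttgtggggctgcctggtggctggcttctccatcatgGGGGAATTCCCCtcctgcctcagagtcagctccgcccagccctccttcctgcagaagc
Tnfaip2, chr12:111442561-111442660, plus strand, the last 100 bases before the start: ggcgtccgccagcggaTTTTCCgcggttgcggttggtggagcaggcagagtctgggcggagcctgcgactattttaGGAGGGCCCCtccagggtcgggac
In Tnip1 the capitals join 4 overlapping matches of the NF-kB consensus, both strands counted, 58 to 47 bases before the start. In Tnfaip2 the NFAT core lay 84 to 79 and the NF-kB consensus 24 to 15 bases before the start, and they did not overlap.

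Curdlan raised most of these genes by 2 h and all 9 measured by 4 h. A gene counts as higher or lower here when it differs by 1.5-fold or more and its adjusted p is under 0.05. After 2 h of curdlan, 6 of 9 were higher than in nontreated cells and 0 were lower, where 2.2% of all genes were called higher and 1.4% lower. After 4 h, 9 of 9 were higher, against 5.05% of all genes (4.15% were lower). The median log2 difference of the 9 genes was 0.80 at 2 h and 1.33 at 4 h, while the median over all genes was -0.04 and -0.12. Between 2 h and 4 h of curdlan, 4 genes rose (Traf5, Birc2, Cflar and Tnip1), against 2.79% of all genes, and 0 fell, against 1.3%. Of these 4, Traf5 and Birc2 had not been called higher at 2 h. Cflar was no longer among the 4 without curdlan 2 h replicate 3.

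**Figure D1:**
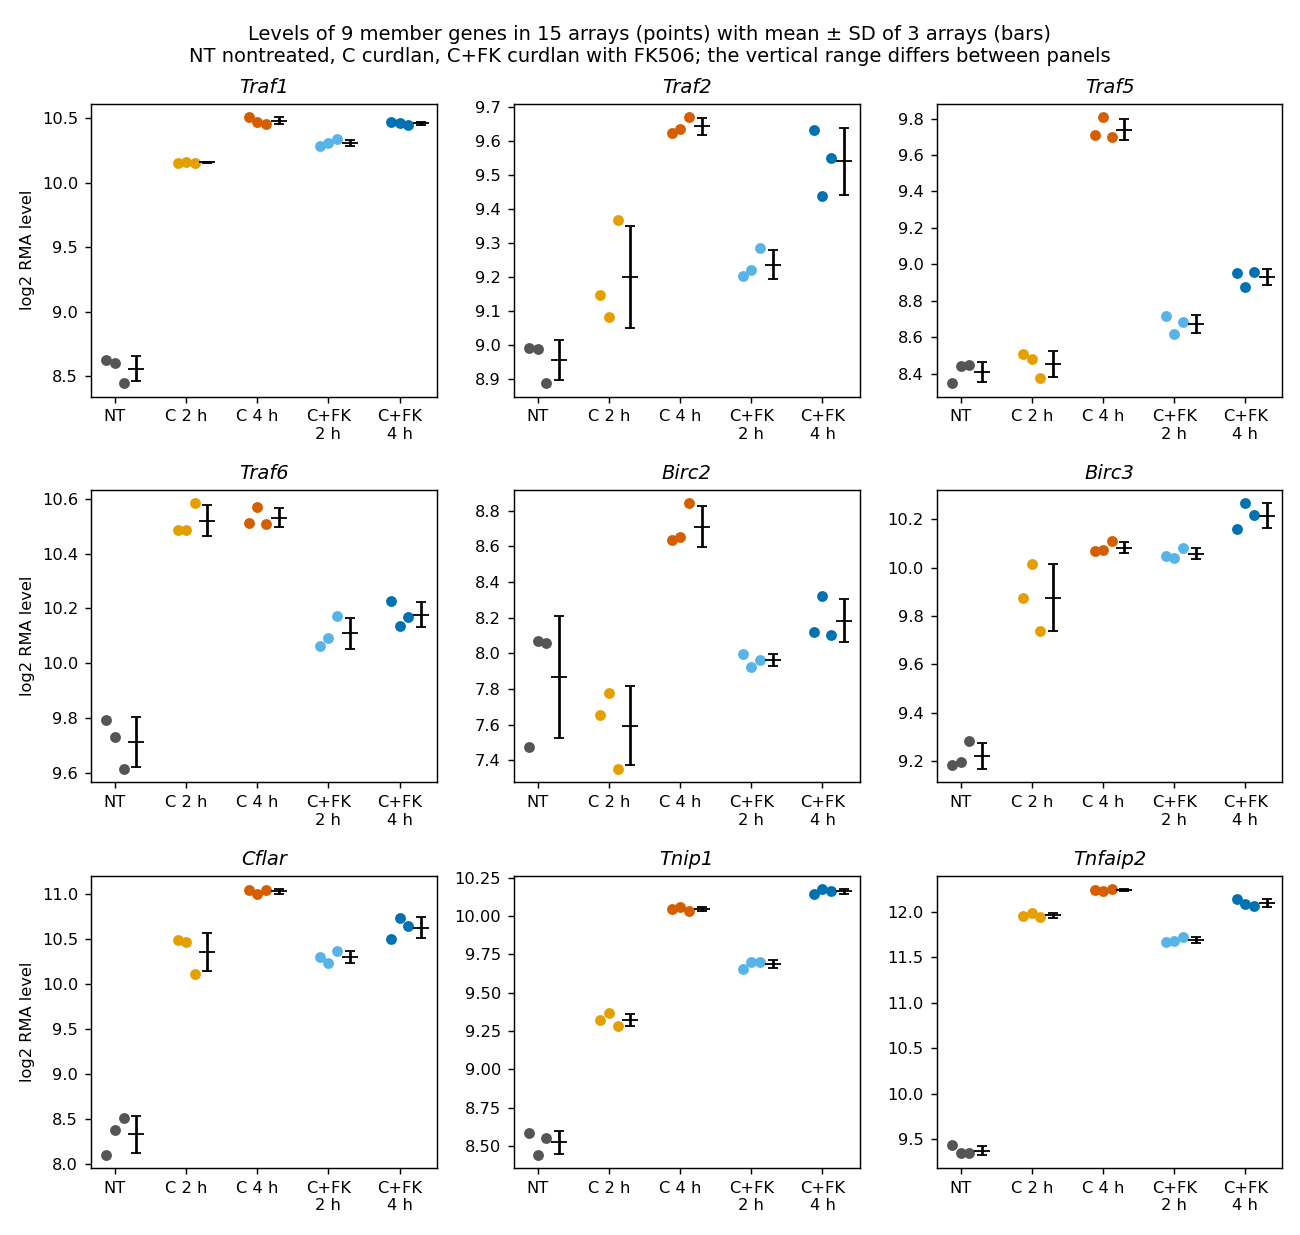
Log2 RMA level (vertical axis, own range in each panel) of the 9 measured genes in the 5 groups (horizontal axis). Points are the 3 arrays of a group and bars the mean ± SD. Tnfaip2, Cflar and Traf1 were already high at 2 h of curdlan, whereas Traf5 lay at 8.38 to 8.51 at 2 h, inside or just above the nontreated range, and at 9.70 to 9.81 at 4 h.

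Among the TRAF adaptors, Traf1 and Traf6 rose early and Traf2 and Traf5 late. Traf1 (probe set 10481949), which forms complexes with Traf2 and is itself induced by NF-kB, read 8.63, 8.60 and 8.44 in nontreated cells, 10.15, 10.16 and 10.15 at 2 h of curdlan and 10.51, 10.47 and 10.46 at 4 h. With FK506 it read 10.28, 10.30 and 10.33 at 2 h and 10.47, 10.46 and 10.45 at 4 h. The nontreated arrays lay below all others, and the 4 h groups with and without FK506 overlapped. The rise was 3.03-fold at 2 h (log2 difference 1.60 ± 0.05 SE, limma adjusted p 1.56e-11) and 3.79-fold at 4 h (1.92 ± 0.05). The FK506 difference at 4 h was -0.02, with a 95% interval of -0.12 to 0.08, and at 2 h it was 0.15 (adjusted p 0.0734).

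Traf6 (probe set 10474112), the adaptor that also links the CARD9-BCL10-MALT1 module below dectin-1 to NF-kB, read 9.79, 9.73 and 9.61 in nontreated cells. At 2 h of curdlan it read 10.49, 10.49 and 10.58 and at 4 h 10.51, 10.57 and 10.51. With FK506 the 6 arrays read 10.06 to 10.17 at 2 h and 10.14 to 10.23 at 4 h. Curdlan at 2 h and 4 h could not be separated, with a difference of 0.01 and an interval of -0.10 to 0.13. All 6 FK506 arrays lay between the nontreated and the curdlan arrays. Curdlan alone raised Traf6 1.75-fold at 2 h and 1.76-fold at 4 h (adjusted p 8.84e-08 and 2.92e-08). Its level with FK506 differed from curdlan alone by -0.41 ± 0.05 at 2 h (adjusted p 0.000196) and -0.35 ± 0.05 at 4 h (adjusted p 0.000481), both under the 1.5-fold limit.

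Traf5 (probe set 10361139), an adaptor of CD40 and OX40 among other receptors, followed another course. It read 8.35, 8.44 and 8.45 in nontreated cells and 8.51, 8.48 and 8.38 at 2 h of curdlan, which overlapped. At 4 h it read 9.71, 9.81 and 9.70 with curdlan and 8.95, 8.88 and 8.96 with curdlan and FK506. The 2 h arrays with FK506 read 8.72, 8.62 and 8.68, above those with curdlan alone. The 2 h difference from nontreated cells was 0.04, with an interval of -0.07 to 0.16, and the 4 h rise was 2.51-fold (1.33 ± 0.05, adjusted p 1.54e-10). Traf5 was the only one of the 9 genes called lower with FK506 at 4 h, by 1.75-fold (-0.81 ± 0.05, adjusted p 1.65e-07).

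Traf2 (probe set 10480760), the adaptor that carries the cIAPs, moved least of the TRAF genes. It read 8.99, 8.99 and 8.89 in nontreated cells, 9.15, 9.08 and 9.37 at 2 h of curdlan and 9.63, 9.64 and 9.67 at 4 h. The highest 2 h value came from curdlan 2 h replicate 3, 1 of the arrays that stood apart, and the difference at 2 h was 0.24 ± 0.07 with it and 0.18 without both such arrays. At 4 h Traf2 rose 1.61-fold (0.69 ± 0.07, adjusted p 2.68e-06). With FK506 it read 9.20, 9.22 and 9.28 at 2 h and 9.63, 9.44 and 9.55 at 4 h, and both groups overlapped with curdlan alone at the same time. The FK506 differences were 0.04 (interval -0.11 to 0.19) and -0.10 (interval -0.25 to 0.05).

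The cIAP genes Birc2 and Birc3, which are adjacent coding genes on chromosome 9, differed in their course. Birc3 (probe set 10590801) read 9.18, 9.20 and 9.28 in nontreated cells, 9.87, 10.01 and 9.74 at 2 h of curdlan and 10.07, 10.07 and 10.11 at 4 h. With FK506 it read 10.05, 10.04 and 10.08 at 2 h and 10.16, 10.27 and 10.22 at 4 h, the highest group. Birc3 rose 1.58-fold at 2 h (0.66 ± 0.06, adjusted p 2.5e-06) and 1.82-fold at 4 h (0.86 ± 0.06). The FK506 differences were 0.18 at 2 h (adjusted p 0.0999) and 0.13 at 4 h (adjusted p 0.243), neither past the test.

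Birc2 (probe set 10590791) read 7.47, 8.07 and 8.06 in nontreated cells and 7.65, 7.78 and 7.35 at 2 h of curdlan. The low nontreated value was that of replicate 1 and the lowest 2 h value that of replicate 3, the arrays that stood apart. At 4 h Birc2 read 8.64, 8.65 and 8.84 with curdlan and 8.12, 8.32 and 8.10 with FK506 added, and at 2 h with FK506 it read 7.99, 7.93 and 7.96. The 4 h curdlan arrays lay above all others. The 4 h rise was 1.80-fold (0.84 ± 0.14, adjusted p 0.00034), and 0.65 without the outlying pair of arrays. The 2 h difference did not pass the test (-0.27 ± 0.14, adjusted p 0.256). Without that pair it was -0.35 at an adjusted p of 0.00603, still under the fold limit. With FK506 at 4 h Birc2 differed from curdlan alone by -0.53 ± 0.14 (adjusted p 0.0292), under the fold limit. A second Birc2 probe set (10590799), which is tied to a single cDNA clone and not to the RefSeq transcript, gave a 4 h difference of 0.25 that was not called and an FK506 difference of -0.19 (adjusted p 0.134).

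Cflar had the second largest rise at both times by the probe set used. It read 8.10, 8.38 and 8.51 in nontreated cells, 10.49, 10.47 and 10.11 at 2 h of curdlan and 11.05, 11.00 and 11.04 at 4 h. With FK506 it read 10.31, 10.23 and 10.37 at 2 h and 10.50, 10.73 and 10.65 at 4 h. The 2 h groups overlapped, and at 4 h all FK506 arrays lay below those with curdlan alone. The rise was 4.08-fold at 2 h (2.03 ± 0.11, adjusted p 1.36e-08) and 6.51-fold at 4 h (2.70 ± 0.11). From 2 h to 4 h Cflar rose by 0.67, and the difference was 0.55 and under the fold limit without curdlan 2 h replicate 3. FK506 gave a difference of -0.06 at 2 h (interval -0.29 to 0.18) and -0.40 ± 0.11 at 4 h (adjusted p 0.0293), under the fold limit.

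The array has 3 probe sets annotated to Cflar, and the one used lies apart from the others in the array's numbering. Cflar lies on chromosome 1 beside Casp8, but of the 10 probe sets numbered next to the one used (10497931), all 10 belong to genes of chromosome 3 and 0 to chromosome 1. For each of the other Cflar probe sets (10346551 and 10346562), 9 of 10 numbered neighbours belong to chromosome 1. In a fit over all probe sets, 10346551 gave a rise of 1.83 ± 0.07 at 2 h and 2.43 ± 0.07 at 4 h, and 10346562 one of 2.22 ± 0.13 and 3.10 ± 0.13. At 4 h the FK506 difference was -0.45 ± 0.07 (adjusted p 0.000572) for 10346551, under the fold limit, and -0.62 ± 0.13 (adjusted p 0.00597) for 10346562, which was called lower. With 10346562 in place of 10497931, Cflar would therefore join Traf5 as lower with FK506 at 4 h. All 3 probe sets were called higher with curdlan at both times.

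**Figure D2:**
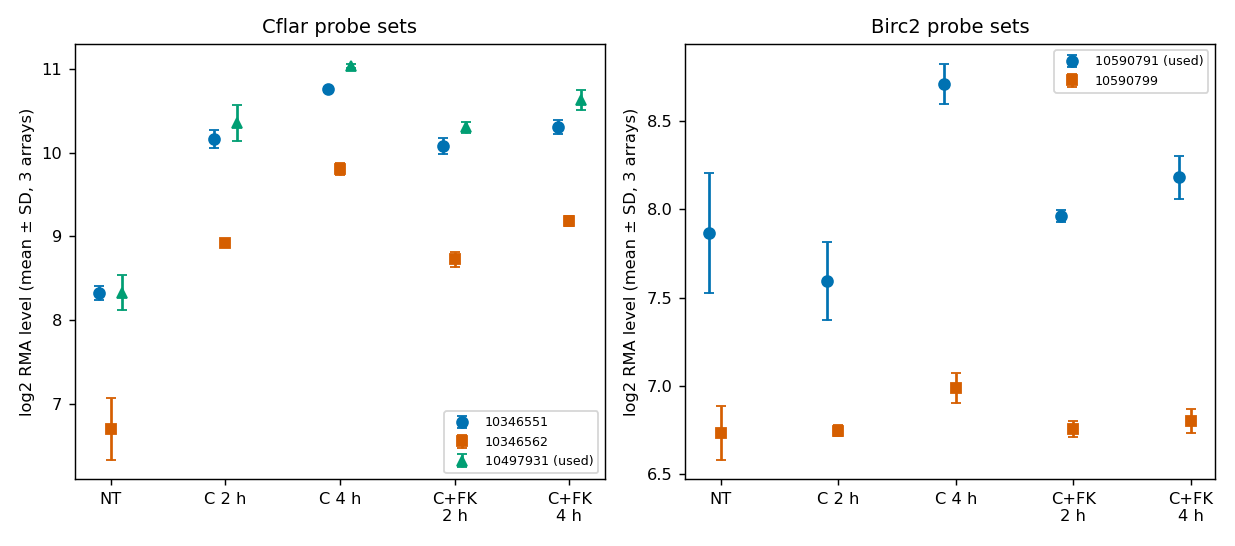
Group mean ± SD (3 arrays) of the log2 RMA level for the 3 probe sets annotated to Cflar (left) and the 2 annotated to Birc2 (right), in the 5 groups. The Cflar probe sets share their order of groups, whereas Birc2 10590799 stays between 6.73 and 6.99 in the group means.

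Tnip1 and Tnfaip2 rose at both times. Tnfaip2 (probe set 10398665), a TNF-induced gene linked to membrane protrusions, read 9.43, 9.34 and 9.34 in nontreated cells, 11.96, 11.99 and 11.94 at 2 h of curdlan and 12.24, 12.23 and 12.25 at 4 h. With FK506 it read 11.67, 11.68 and 11.73 at 2 h and 12.14, 12.09 and 12.07 at 4 h. No group overlapped with another. The rise of 6.03-fold at 2 h (2.59 ± 0.04) and 7.31-fold at 4 h (2.87 ± 0.04, adjusted p 1.01e-14) was the largest of the 9 genes by the probe sets used, though Cflar probe set 10346562 gave 3.10 at 4 h. The FK506 differences, -0.27 ± 0.04 at 2 h (adjusted p 0.000573) and -0.14 ± 0.04 at 4 h (adjusted p 0.0344), were small beside it and under the fold limit.

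Tnip1 (probe set 10385941) encodes ABIN-1, which binds the ubiquitin editor A20 (Tnfaip3) and restrains NF-kB. It read 8.58, 8.44 and 8.55 in nontreated cells, 9.32, 9.36 and 9.29 at 2 h of curdlan and 10.05, 10.06 and 10.03 at 4 h. With FK506 it read 9.66, 9.70 and 9.70 at 2 h and 10.14, 10.17 and 10.17 at 4 h. At each time the FK506 arrays lay above those with curdlan alone, the opposite of Tnfaip2. Tnip1 rose 1.74-fold at 2 h and 2.87-fold at 4 h (0.80 and 1.52 ± 0.04, adjusted p 1.19e-08 and 6.32e-12). The FK506 difference was 0.36 ± 0.04 at 2 h (adjusted p 8.42e-05), under the fold limit, and 0.12 at 4 h (adjusted p 0.123).

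Against nontreated cells, curdlan with FK506 still raised 5 of the 9 genes at 2 h (1.81% of all genes were called higher and 0.537% lower) and 6 at 4 h (2.95% and 2.43%), and 0 were lower. These comparisons use the same nontreated arrays as those of curdlan alone, so their values are only set side by side. At 4 h Traf1 was higher by 1.92 without and 1.90 with FK506, Cflar by 2.70 and 2.30, Tnip1 by 1.52 and 1.64, Tnfaip2 by 2.87 and 2.73, and Birc3 by 0.86 and 0.99. Traf2 was higher by 0.69 and 0.59, the second value only just past the fold limit. The 3 genes called at 4 h with curdlan alone but not with FK506 were Traf5 (1.33 and 0.52), Traf6 (0.82 and 0.46) and Birc2 (0.84 and 0.32). Traf5 and Traf6 with FK506 had adjusted p of 3.38e-06 and 1.34e-05 and missed the fold limit alone, while Birc2 missed both (adjusted p 0.14).

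**Figure D3:**
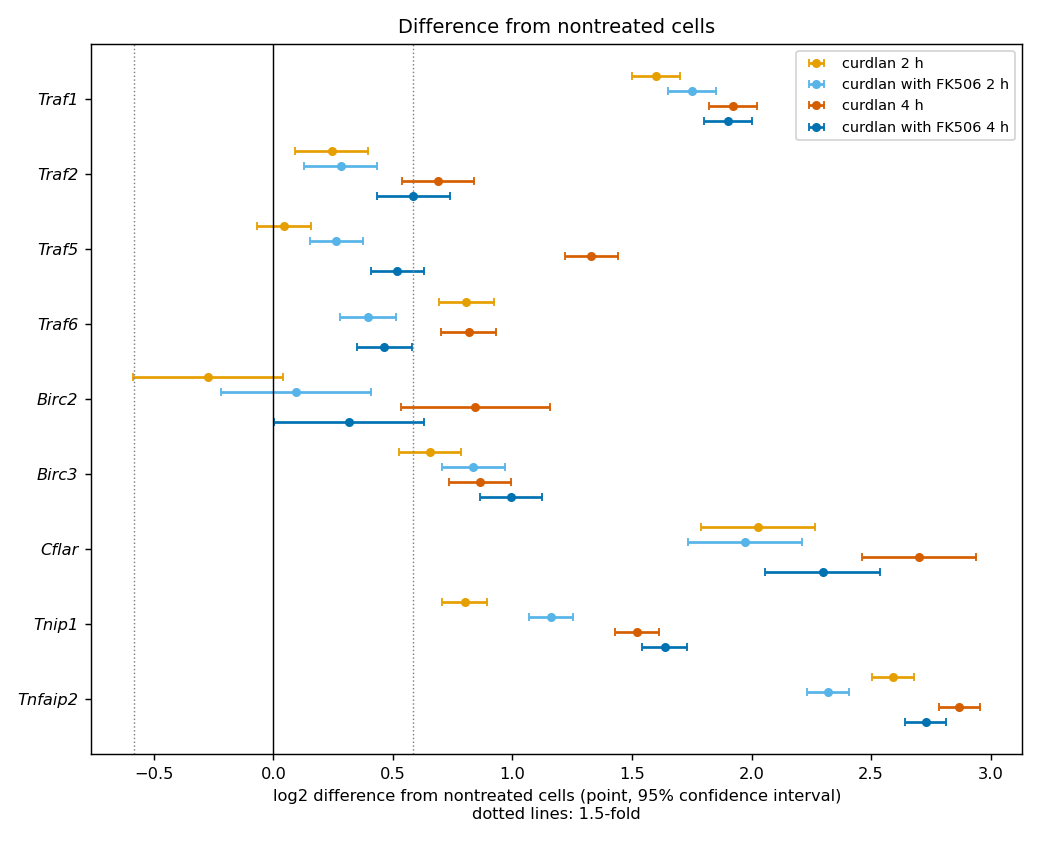
Log2 difference from nontreated cells (horizontal axis; point with 95% confidence interval) for each gene under curdlan, with and without FK506, at 2 h and 4 h. Dotted lines mark 1.5-fold. Traf5 at 4 h of curdlan (1.33) stands clear of its other values, while the 4 values of Traf1 lie between 1.60 and 1.92.

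The comparison of curdlan with and without FK506 asks how much of each level changes when calcineurin is blocked. At 2 h, 0 of the 9 genes were called, where 0.361% of all genes were called higher and 0.762% lower. An unadjusted p under 0.05 was found for 7 of the 9, with no share of all genes at that limit given here. By adjusted p alone, 2 were higher (Traf5 and Tnip1, against 4.48% of all genes) and 2 lower (Traf6 and Tnfaip2, against 3.09%). At 4 h, 1 gene was called lower (Traf5, against 1.53% of all genes) and 0 higher (0.211%). By adjusted p alone, 5 were lower at 4 h (Traf5, Traf6, Birc2, Cflar and Tnfaip2, against 6.03% of all genes) and 0 higher (5.64%). The median FK506 difference of the 9 genes was 0.15 at 2 h and -0.14 at 4 h, and that of all genes -0.03 and 0.03.

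**Figure D4:**
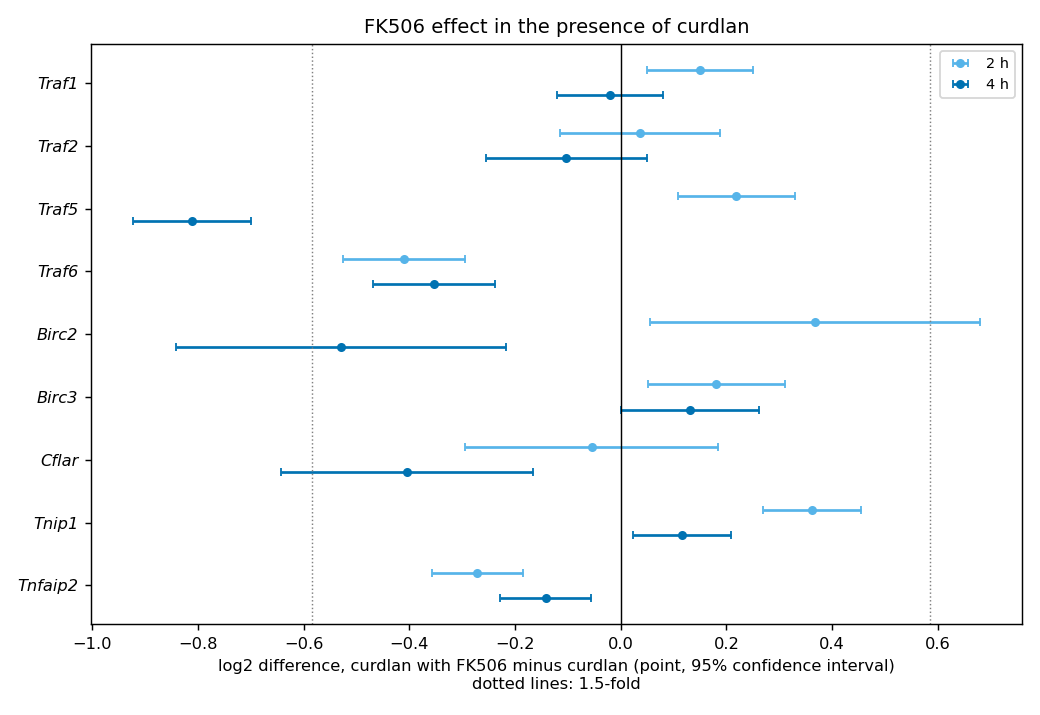
Log2 difference of curdlan with FK506 minus curdlan alone (horizontal axis; point with 95% confidence interval) at 2 h and 4 h. Dotted lines mark 1.5-fold. At 4 h Traf5 lies at -0.81, beyond the line, and at 2 h at 0.22. Traf6 lies at -0.41 and -0.35, close to the same place at both times.

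The FK506 difference itself was compared between 4 h and 2 h by the interaction term. It was lower at 4 h for Traf5 (-1.03 ± 0.07, adjusted p 3.89e-06) and Birc2 (-0.90 ± 0.20, adjusted p 0.0233), 2 of the 9 genes against 1.06% of all genes, and higher for 0 (0.171%). Traf5 turned from 0.22 at 2 h to -0.81 at 4 h, and Birc2 from 0.37 to -0.53. Without the outlying pair of arrays the Birc2 value was -0.77 (adjusted p 0.000314), and its second probe set gave -0.20 (adjusted p 0.331). The Birc2 call was lost without curdlan 4 h replicate 3 or without replicate 1 or 3 of either FK506 group (adjusted p 0.059 to 0.0698), with each array centred on its median (adjusted p 0.0522) and with the mean of its probe sets (-0.55, under the fold limit). Tnip1 (-0.25, adjusted p 0.0358) was under the fold limit. Traf6 had 0.06 (adjusted p 0.676), and Cflar -0.35 (adjusted p 0.269).

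Around these genes, 6 lists of the same pathway hold 119 genes, of which 110 were measured. Of these, 19 were higher and 2 lower at 2 h of curdlan, and 26 higher and 9 lower at 4 h. Over all genes, 2.2% were called higher and 1.4% lower at 2 h, and 5.05% higher and 4.15% lower at 4 h. The medians over the 110 genes were near 0 at both times. Counts at an unadjusted p under 0.05 in these lists come without the share of all genes at that limit, and are not read as a result about a list. In the TNF receptor family, 5 of 20 were higher at 2 h and 6 at 4 h, with 0 lower. At 4 h they were led by Cd40 (3.04), the death receptor Fas (2.77), OX40 (Tnfrsf4, 2.06) and TNF receptor 2 (Tnfrsf1b, 1.78). FK506 lowered 4 of the 20 at 4 h (1.53% of all genes), namely Tnfrsf4 (-1.67), Tnfrsf13c (-1.45), Fas (-0.72) and Tnfrsf1b (-0.63). Of 17 measured genes of the receptor complex and of death signalling, 0 were called at 2 h, with 7 at an unadjusted p under 0.05. At 4 h 2 were higher, the nucleic acid sensor Zbp1 (0.87) and Mapkapk2 (0.63), and Zbp1 was lower with FK506 (-0.89).

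Of 21 measured further TRAF proteins and TRAF-binding adaptors, 3 were higher and 3 lower at 4 h of curdlan. The higher ones were the kinase Ikbke (3.50), Traf4 (1.56) and Tank (1.22), and Tifa fell by 1.13. FK506 lowered Ikbke (-1.27) and Traf4 (-1.03) at 4 h, and Traf5 was lowered with them (-0.81). Of 20 measured downstream kinases and their adaptors, 6 were higher and 3 lower at 4 h. Among the higher ones were NIK (Map3k14, 1.68), Tpl2 (Map3k8, 1.46) and Malt1 (0.95), and among the lower ones the dectin-1 adaptor Card9 (-0.77). With FK506, 0 of the 20 were called at 4 h by limma, with 12 at an unadjusted p under 0.05.

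Of 13 measured other IAP genes, IAP antagonists and caspases, 0 were called at 2 h of curdlan, with 7 at an unadjusted p under 0.05. At 4 h the XIAP partner Xaf1 was higher (1.63) and Casp9 lower (-0.81), and Xaf1 was lower with FK506 (-1.25). Of 19 relatives of Tnfaip2 and Tnip1 and other ubiquitin editing and NF-kB feedback genes, 6 were higher at 2 h with 0 lower, and 8 were higher and 2 lower at 4 h. The lower ones were Tnfaip8l3 (-0.80) and Tnfaip8l2 (-0.75). At 4 h the higher ones were led by A20 (Tnfaip3, 2.99), Nfkb2 (1.57), the inhibitor Nfkbia (1.53) and Rel (1.33). With FK506 at 4 h, 0 of the 19 were called by limma, with 9 at an unadjusted p under 0.05, and Usp18 (-0.42) and Otud7b (-0.39) had the largest differences. Of 9 measured reference genes, 0 were called by limma at 2 h or 4 h of curdlan, with 1 and 3 at an unadjusted p under 0.05. Actb differed by 0.01 at both times, rounded, and Sdha by -0.21 (adjusted p 0.000986) and -0.23 (adjusted p 0.000277), under the fold limit.

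The genes most like each of the 9 by Pearson's r over the 15 arrays are given as a description, since the arrays share their groups and any gene that follows the same groups correlates. Traf1 was most like Icam1 (0.993), Gpr84 (0.991) and Furin (0.99), and Birc3 most like H2-Q5 (0.989), Furin (0.986) and Irf5 (0.982). Cflar was most like Cd80 (0.995), the Mir155 probe set (0.994) and Rgs1 (0.994), and Tnfaip2 most like Cd83 (0.996), Nr4a3 (0.994) and Il1a (0.993). Icam1 is an adhesion molecule, and Cd80 and Cd83 are surface molecules of mature dendritic cells. Traf5 was most like Adar (0.985), Itgal (0.984) and Bex6 (0.978), and Birc2 most like Parp9 (0.983), Metap1 (0.979) and Mx1 (0.976). Adar, Parp9 and Mx1 are known interferon-stimulated genes. Traf6 was most like Sertad2 (0.991), Ccl4 (0.984) and Tgif1 (0.984), Tnip1 most like Myo1g (0.998), Herpud1 (0.994) and Cxcl16 (0.989), and Traf2 most like Ipo4 (0.972), Spata2 (0.968) and Tmem168 (0.967). Among the 9 genes themselves, r was highest for Traf1 with Tnfaip2 (0.988) and lowest for Traf6 with Birc2 (0.222).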

How the data were processed

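Total RNA of 15 samples of D1 cells was hybridised to Affymetrix Mouse Gene 1.0 ST arrays. The deposited values are log2 intensities that the authors made by RMA (affy, R 2.15.2), which corrects background, quantile-normalises the arrays and summarises the probes of each probe set. Quantile normalisation hides any change that all genes share. The number of arrays limits the precision. The array's genome build is not given in the sources used here.

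The platform annotation gives 1 symbol for 21640 of the 34760 probe sets, several for 1321 and none for 11799, and only the first were used. The brightest probe set by 15-array mean was kept for 954 genes with several, leaving 19937 genes, 19918 of them in the RefSeq table (GRCm38.p6). No filter on low values was applied. limma 3.58.1 in R 4.3.3 fitted 1 mean per group to all 15 arrays (10 residual degrees of freedom, empirical Bayes, two-sided), and p-values were adjusted by Benjamini-Hochberg over 19937 genes within each of 8 comparisons. Intervals are unadjusted 95% confidence intervals. Counts of genes at an unadjusted p under 0.05 are given without the share of all genes at that limit. The p-values measure the spread between arrays labelled as biological replicates, which nothing further ties to separate cultures. The script was tested on simulated data. With 3 arrays against 3, an exact permutation test cannot go below p = 0.1 and was not used.

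The genes, the pathway lists and the naming rule were chosen with earlier results of these data known. The rule names the 10 genes in every comparison, of each list up to 4 called genes by size of change or, where none was called, the 2 with the largest change, the 3 genes most correlated with each member, and Actb. The Cflar and Birc2 probe sets that were not used, and Card9, Tnfaip8l2, Tnfaip8l3, Mertk, Irf8 and Cd209a, were added after their values were seen. Alternatives were other normalisations, array weights, probe set and fold rules, a filter on dim genes, a replicate block and leaving out arrays.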

Additional observations from a re-analysis of the deposited data

Results flagged for a closer look

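The FK506 difference (curdlan with FK506 minus curdlan alone) differed between 4 h and 2 h for Traf5 and Birc2 by the interaction term of the limma fit. For Traf5 the difference between the times was -1.03 ± 0.07 (adjusted p 3.89e-06), with 3 of 3 FK506 arrays above all curdlan arrays at 2 h and 3 of 3 below them at 4 h. For Birc2 it was -0.90 ± 0.20 (adjusted p 0.0233), again with 3 of 3 FK506 arrays above at 2 h and 3 of 3 below at 4 h. The second Birc2 probe set gave -0.20. The Birc2 call was lost without any 1 of 5 single arrays (adjusted p 0.059 to 0.0698) and with centred arrays (adjusted p 0.0522). Separation of all FK506 arrays from all curdlan arrays, in either direction, was common. It held for 5691 of 19937 genes at 2 h and 7229 of 19937 at 4 h. Of the 9 genes described here it held for 7 at each time. The FK506 difference of Birc2 at 2 h alone (0.37) had a limma adjusted p of 0.173. No cause was tested for either gene.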

How the results depend on the processing

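Of 1728 member values recomputed under 24 settings, 1710 kept their side of the call, 16 lost the call, 2 gained it and 0 called values reversed. Of those not called, 16 changed sign. Of 416 counts, 398 stayed within 1.5 times. With a fold limit of 2, the genes called higher were 3 at 2 h and 5 at 4 h of curdlan and 2 from 2 h to 4 h, and those called lower were 0 for FK506 at 4 h and 1 in the interaction. With no fold limit, 8 were higher from 2 h to 4 h and 8 with curdlan and FK506 at 2 h against nontreated cells. FK506 then gave 2 higher (4.48% of all genes) and 2 lower (3.09%) at 2 h, and 5 lower (6.03%) at 4 h. For the other counts at these changed fold limits, the share of all genes is not given here. The interaction count was 1 with each array centred on its median and 1 with the mean of a gene's probe sets, since Birc2 then had an adjusted p of 0.0522 or a value of -0.55. Leaving out each replicate gave 1 to 2 genes lower in the interaction, with Birc2 lost without curdlan 4 h replicate 3 or without replicate 1 or 3 of either FK506 group (adjusted p 0.059 to 0.0698). It gave 1 to 2 lower with FK506 at 4 h, where Birc2 reached -0.60 without curdlan+FK506 4 h replicate 2. Traf2 with FK506 at 4 h against nontreated cells lost its call under 5 settings (0.54 to 0.58), Traf5 gained one there with centred arrays (0.59), the 4 h rise of Birc2 became 0.55 with the mean of probe sets, and the rise of Cflar from 2 h to 4 h became 0.55 with array weights. Centring moved the median of all genes at 4 h of curdlan from -0.12 to -0.01.

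With the replicate number as a block, the members called higher were 6 at 2 h and 9 at 4 h of curdlan and 2 were lower in the interaction, and over all genes 438 and 1004 were higher, against 439 and 1007. The block changed no count of members. Replicates of equal number did not deviate together in every pair, with r of -0.617, 0.584 and -0.727 between nontreated and 2 h of curdlan. That comparison holds both outlying arrays, and in the others r ran from -0.298 to 0.422. The labels give only a number, and this check cannot tell whether replicates of equal number were paired.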

Other observations

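In the same pathway lists the FK506 difference was lower at 4 h than at 2 h for 7 of 110 genes and higher for 1. Over all genes, 1.06% were called lower and 0.171% higher in this comparison. The lower ones were Tnfrsf4 (-1.27), Xaf1 (-1.13), Ikbke (-0.98), Fas (-0.80), Tnfrsf13c (-0.78), Zbp1 (-0.77) and Traf4 (-0.72), and the higher one was Irak2 (0.69), a kinase of the interleukin-1 and Toll-like receptor complex. Tnfrsf13c, the BAFF receptor, was the only gene of these lists called between curdlan with FK506 and curdlan alone at 2 h (a log2 difference of -0.67).

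Of the dendritic cell and macrophage markers, Mertk, a receptor for apoptotic cells, had group means of 8.11 in nontreated cells, 8.51 and 8.38 with curdlan at 2 h and 4 h, and 6.98 and 6.17 with curdlan and FK506. Irf8 had means of 8.78, 10.4 and 11.2 in nontreated cells and at 2 h and 4 h of curdlan, and of 10.3 and 10.7 with FK506 at 2 h and 4 h. Other markers took other courses. Cd209a had means of 9.25 in nontreated cells and 9.27 and 8.35 at 2 h and 4 h of curdlan. With FK506 added, the Cd209a means were 9.17 and 8.18. Itgax stayed between 12.1 and 12.3 in all group means. These markers were read to check the cell type, and the list itself changed with treatment. Of its 13 genes, 2 were called higher and 0 lower at 2 h of curdlan (2.2% and 1.4% of all genes). At 4 h of curdlan 2 were higher and 1 lower (5.05% and 4.15%). Against curdlan alone, FK506 gave 1 lower at 2 h (0.762%) and 2 lower at 4 h (1.53%), with 0 higher at either time (0.361% and 0.211%).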
